A study of Homo sapiens with 6 samples.

Results

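The genes described here encode the proteins of the cytosolic ribosome. They were chosen by name alone: a probe set was taken if the platform annotation gave it exactly 1 gene symbol, and that symbol was RPL or RPS followed by a digit, or RPLP0, RPLP1, RPLP2 or RPSA. Kinases of the RPS6K family, antisense names and pseudogenes were left out. The rule took 186 probe sets of 71 genes, out of 18132 genes with a probe set of 1 symbol. Of these, 126 probe sets and 47 genes belong to the large subunit, and 60 probe sets and 24 genes to the small subunit. Of the 71 genes, 7 are paralogues, second copies of a core ribosomal protein gene with a protein of their own. RPLP0, RPSA and RPS27A have no probe set with 1 symbol and were not analysed here, and a further 38 probe sets that name a ribosomal protein gene together with other genes were left out.

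The arrays came from SHSY5Y, a human neuroblastoma cell line, grown in a mixture of MEM and F12 media with 10% fetal bovine serum. The 3 manganese arrays are from cells given 100 µM manganese for 24 h, a dose that the labels put at the median lethal concentration divided by 5. The 3 control arrays are from untreated cells of the same line in the same medium. Gene expression was read on one-colour Affymetrix arrays from 6 µg of total RNA each, and every level below is a log2 value after robust multi-array averaging (RMA). The labels call the arrays biological replicates without saying whether cultures were started separately, so p-values measure only the spread between these samples. A single cell line of tumour origin was used, so nothing here speaks for neurons in tissue.

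A cytosolic ribosome holds a small subunit, which reads the messenger RNA, and a large subunit, which joins the amino acids. Each is built in the nucleolus from ribosomal RNA and 1 copy of nearly every protein, and surplus ribosomal proteins are usually degraded. In mammals the messenger RNAs of these proteins begin with a C followed by a run of pyrimidines, the 5′ terminal oligopyrimidine (TOP) tract, through which the kinase mTOR and the RNA-binding protein LARP1 control their translation. Many of the genes also carry small nucleolar RNA (snoRNA) genes in their introns. An array measures the amount of messenger RNA and not its translation.

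The first bases of a few of these genes are shown because the TOP tract is the sequence that marks the family. Each line gives 10 bases before and 20 bases from an annotated start in RefSeq (GRCh38.p14), read 5′ to 3′ on the strand of the gene, with the tract in capitals. The tract was searched as a C at the start followed by at least 4 further C or T bases on the strand of the gene. RPL11, RPL35A and RPS6 are the 3 members with the lowest fold changes in manganese, and RPL22L1 and RPL22 are a paralogue and its core partner.
RPL11 (chr1:23691796-23691825, plus strand): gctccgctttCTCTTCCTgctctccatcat
RPL35A (chr3:197950180-197950209, plus strand): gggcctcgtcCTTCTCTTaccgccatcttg
RPS6 (chr9:19380217-19380246, minus strand): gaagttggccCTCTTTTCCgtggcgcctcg
RPL22L1 (chr3:170870176-170870205, minus strand): ccgtagcttcCTCTCTgctctcgcggccga
RPL22 (chr1:6199576-6199605, minus strand): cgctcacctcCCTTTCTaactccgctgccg
The next 3 genes are shown because no such run of 5 or more bases began at their annotated start.
RPS4X (chrX:72277229-72277258, minus strand): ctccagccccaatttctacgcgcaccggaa
RPL7L1 (chr6:42879606-42879635, plus strand): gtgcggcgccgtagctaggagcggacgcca
RPS27L (chr15:63157458-63157487, minus strand): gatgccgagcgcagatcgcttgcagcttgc
A start that is annotated a few bases off hides a tract in this search, and the absence of the letters at these positions says nothing more.

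The search found the tract in 42 of the 59 ribosomal protein genes with an entry in the promoter table, or 71.2%. Over all tested genes with an entry the share was 7.03% (762 of 10834), and over all starts of the table it was 4.07%. Among the 12 starts looked at in detail, the tract was longest in RPL39, at 19 bases, and it had 12 bases in RPL10. A snoRNA gene lay within the span of 23 of the 70 ribosomal protein genes tested (32.9%), against 3.15% of the tested protein-coding genes. RPL3, RPL4, RPL7A, RPL13A and RPL23A each held 4 snoRNA genes.

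Marker levels and the arrays' quality were checked first. Of the 10 neuroblastoma markers listed, 9 were measured and all 9 lay between 7.70 and 13.13. The 9 measured markers of other cell types lay between 2.71 and 6.43, and 6 of them passed the filter described below. Such levels cannot establish the identity of the line. Across genes, which are not independent replicates, Pearson's r was 0.993 to 0.996 among the manganese arrays and 0.975 to 0.992 among the controls. Control 1 had the lowest values, 0.967 to 0.981, with every other array. Spike-in RNA averaged 7.91, 7.84 and 7.80 on the manganese arrays and 6.14, 7.79 and 5.81 on the control arrays, so control 2 alone shared the level of the manganese arrays. The part of this difference in the results below was not tested, and values against control 2, or without control 1, are given beside them.

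Ribosomal protein transcripts were among the brightest signals on the arrays. To be tested, a probe set had to exceed the 40th percentile of an array (4.37 to 4.40) on 3 or more of the 6 arrays. Of the 186 probe sets, 170 passed, and 70 of the 71 genes were tested, each by its brightest passing probe set. RPL3L, the paralogue of RPL3 known from striated muscle, was the gene that did not pass, with values of 3.57, 3.86 and 3.75 in manganese and 3.37, 3.57 and 3.88 in control cells. The core gene RPL27A passed with its only probe set, but its mean of 4.86 was the lowest of the 70. That level is close to background, so its difference of -0.07 (0.24 against control 2) says little about its transcript. Of the 70 tested genes, 51 had a mean at or above 13, among 31 large and 20 small subunit genes, and the brightest probe set of any array read 14.34 to 14.38. Only 92 of the 13407 genes tested were that bright, and 55.4% of them were ribosomal protein genes. How far the top of the scale limits the change that such genes can show was not tested.

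No cytosolic ribosomal protein gene changed in manganese at an adjusted p of 0.05. Limma, fitted to all 13407 genes with Benjamini-Hochberg adjustment, called 0 of the 70 higher and 0 lower, where it called 0.134% of all genes higher and 0.00746% lower. The smallest adjusted p among the 70 was 0.188, for RPL11. At an unadjusted p under 0.05 there were 2 genes higher (2.86%), against 5.97% of all genes, and 4 lower (5.71%), against 6.85% of all genes. The manganese arrays all lay above the controls for 5 genes (7.14%), against 10.5% of all genes, and all below them for 7 genes (10%), against 9.26% of all genes. These shares lie near the background of the whole array.

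The changes that were measured were small for most members. Exactly 35 of the 70 log2 fold changes, manganese minus control, were positive and 35 negative, with a median of -0.0008, and the median of all genes was 0.0195. Of the members, 61 (87.1%) differed by less than 0.25 on the log2 scale, where 72.9% of all genes did. The quartiles of the members were -0.05 and 0.06. For 54 of the 70 (77.1%) the 95% interval of the fold change lay wholly within 0.5 on either side of 0, that is within 1.41-fold, and this held for 56.5% of all genes. Among the 51 brightest members it held for 49. For the other 16 members the interval reached past that size. The shares of members and of all genes are not matched for level. From 13 to 15 the median size of the change was 0.04 for member probe sets and 0.05 for all probe sets. From 12 to 13 it was 0.18 and 0.10, from 8 to 12 it was 0.24 and 0.17, and from 4 to 8 it was 0.13 for both. RMA sets all arrays to 1 distribution, so a change in total RNA per cell shared by most genes is not visible, and in bulk RNA fewer cells of a kind and less RNA per cell cannot be told apart.

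**Figure D1:**
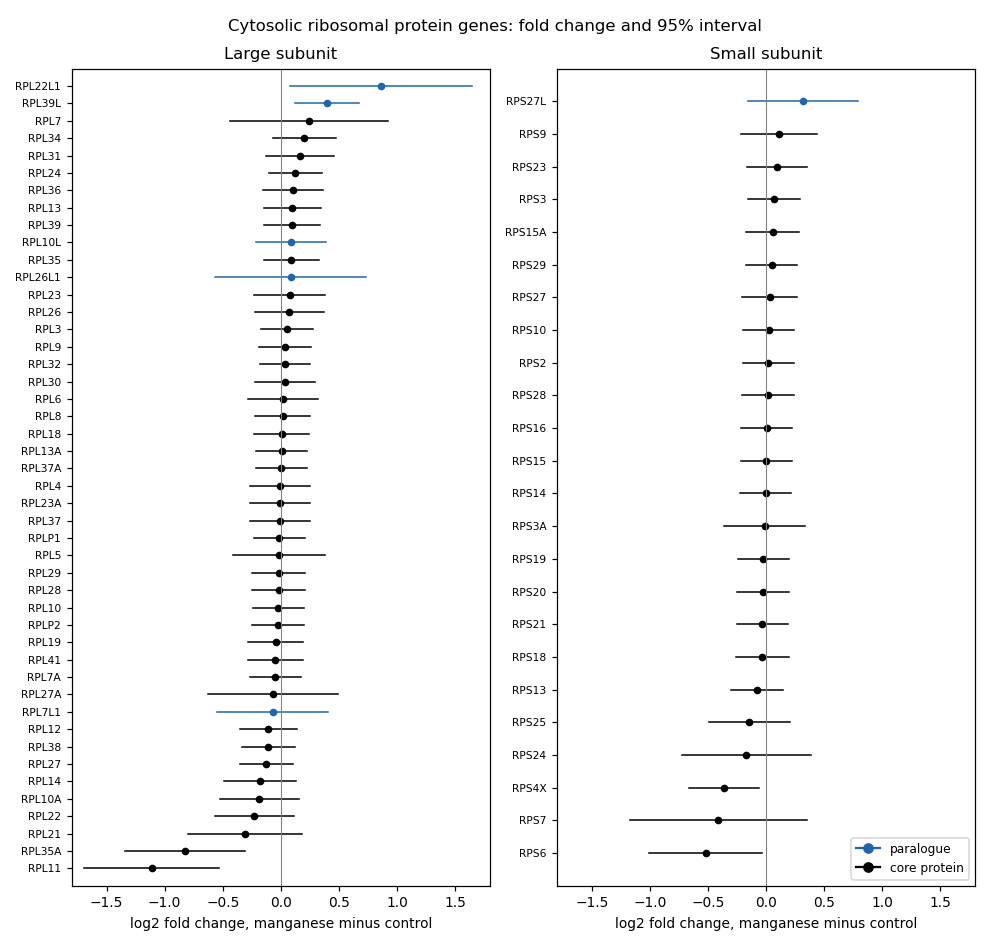
Log2 fold change, manganese minus control (x axis), of each of the 70 ribosomal protein genes tested, with its 95% interval from limma as a horizontal line. The 46 large subunit genes are on the left and the 24 small subunit genes on the right, paralogues in blue and core proteins in black. Most points sit within 0.25 of 0, the large subunit reaches from -1.11 (RPL11) to 0.86 (RPL22L1) and the small subunit from -0.52 (RPS6) to 0.32 (RPS27L).

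The medians of the subunits were close to each other. The median log2 fold change was -0.0006 over the 46 large subunit genes and -0.0008 over the 24 small subunit genes, with 23 positive and 23 negative values in the large subunit and 12 of each in the small. The range was wider in the large subunit, from -1.11 to 0.86, than in the small, from -0.52 to 0.32. Against control 2 alone the medians were 0.02 and 0.0092. At an unadjusted p under 0.05 the large subunit held 2 genes higher and 2 lower (4.35% each). The small subunit held 0 higher and 2 lower (8.33%), and of all genes 5.97% were higher and 6.85% lower.

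The mean level of each subunit was also followed array by array. The large subunit genes averaged 12.71, 12.68 and 12.70 on the manganese arrays and 12.86, 12.64 and 12.63 on the control arrays. The small subunit genes averaged 13.57, 13.54 and 13.57 on the manganese arrays and 13.72, 13.52 and 13.56 on the control arrays. Control 1 was the highest array for both subunits, and the manganese arrays lay within the range of the controls. The large minus small difference was -0.85, -0.86 and -0.87 with manganese and -0.86, -0.87 and -0.93 without it, so the groups' ranges met and control 3 lay apart. Probe sets differ in how well they bind, so the gap between the subunits on 1 array is no difference in amount.

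Control 1 was more often the highest array, and less often the lowest, among the members than among all genes. It was the highest of the 6 arrays for 33 of the 70 members (47.1%), against 27.9% of all genes, and the lowest for 18, against 37.1% of all genes. Values against control 2 are therefore given for most of the genes below whose value moved clearly or turned sign, and for some others.

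RPL5 and RPL11 bind 5S ribosomal RNA together. The particle they form is built into the large subunit during its assembly. RPL11 had log2 values of 11.83, 12.18 and 12.20 in manganese and 13.72, 12.66 and 13.17 in control cells. All manganese arrays lay below all control arrays, and the controls spread over more than 1 log2 unit, with control 1 at the top. The difference was -1.11 with an SE of 0.25 and a 95% interval from -1.69 to -0.53, a 2.16-fold lower level, and it did not pass over all genes (limma adjusted p 0.188). The other RPL11 probe set gave -1.30, with 10.89, 11.23 and 11.27 in manganese and 13.06, 11.86 and 12.36 in control cells. Against control 2 the RPL11 difference was -0.59, and without control 1 it was -0.84 (adjusted p 0.132). Leaving out control 2 gave -1.37 with an adjusted p of 0.045, so the call on RPL11 rests on which control is in the fit. Over all alternative settings the limma adjusted p of RPL11 ran from 0.045 to 0.7, the highest without manganese 1.

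RPL5, its partner, had values of 12.68, 13.06 and 12.88 in manganese and 13.23, 12.75 and 12.69 in control cells. The groups overlapped, and the difference of -0.02 had a 95% interval from -0.41 to 0.38 and was 0.12 against control 2. The difference between the changes of RPL5 and RPL11 was not tested.

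RPL35A is a large subunit protein whose human mutations are a known cause of Diamond-Blackfan anaemia. Its brighter passing probe set read 7.79, 7.83 and 7.97 in manganese and 9.22, 8.26 and 8.58 in control cells. The groups did not overlap, and the difference was -0.82 (SE 0.22, 95% interval -1.34 to -0.31, adjusted p 0.252). The other passing RPL35A probe set read 6.68, 7.33 and 7.03 in manganese and 7.58, 6.85 and 6.54 in control cells, a difference of 0.02. The probe sets of RPL35A therefore did not give 1 answer, and against control 2 the brighter showed -0.40. At a mean of 8.28 the RPL35A signal was also far below that of most members, and the signal of probe sets that name RPL35A with other genes was not used.

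RPS6 is the small subunit protein that S6 kinases phosphorylate downstream of mTOR. Its values were 12.13, 12.76 and 12.60 in manganese and 13.35, 12.71 and 12.999 in control cells. Manganese 2 lay above control 2, so the groups overlapped. The RPS6 difference was -0.52 (SE 0.21, 95% interval -1.01 to -0.04, adjusted p 0.366) and -0.21 against control 2. The other 3 passing RPS6 probe sets gave -0.36, -0.28 and 0.40, the last from a probe set near 5 on the log2 scale.

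RPS4X, an X-linked small subunit protein whose gene escapes X inactivation in humans, had values of 12.77, 12.96 and 12.81 in manganese and 13.43, 13.03 and 13.18 in control cells. The groups did not overlap, although manganese 2 and control 2 were less than 0.1 apart. The difference for RPS4X was -0.36 (SE 0.13, 95% interval -0.67 to -0.06, adjusted p 0.333), and -0.18 against control 2.

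**Figure D2:**
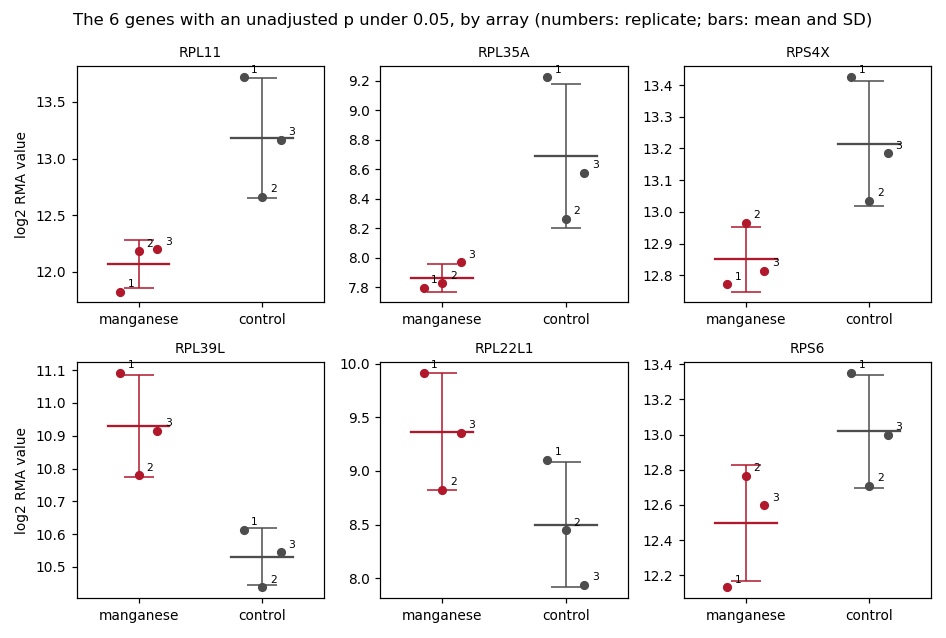
Log2 RMA value on each array (y axis, a separate scale for each gene) of the 6 ribosomal protein genes with an unadjusted p under 0.05, manganese in red and control in grey, with replicate numbers beside the points, the mean as a long bar and the SD as whiskers (n = 3). In RPL11, RPL35A, RPS4X and RPS6 control 1 is the highest array, and in RPL39L and RPL22L1 the manganese means lie above the control means.

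Both genes on the higher side at an unadjusted p under 0.05 were paralogues. RPL39L is the paralogue of RPL39, a short protein that lines the exit tunnel of the large subunit. In mice RPL39L is known from male germ cells. RPL39L read 11.09, 10.78 and 10.92 in manganese and 10.61, 10.44 and 10.55 in control cells, with no overlap. The difference was 0.40 (SE 0.12, 95% interval 0.12 to 0.67, adjusted p 0.286), and it was 0.49 against control 2. RPL39 itself, at 13.94, 13.80 and 13.91 in manganese and 13.86, 13.79 and 13.71 in control cells, differed by 0.10 with overlapping groups.

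RPL22L1 is the paralogue of RPL22, a large subunit protein that is not needed for protein synthesis as such and that binds RNA outside the ribosome. RPL22L1 had values of 9.91, 8.82 and 9.36 in manganese and 9.11, 8.45 and 7.94 in control cells. Manganese 2 fell inside the control range, so the groups overlapped. The difference was 0.86 (SE 0.34, 95% interval 0.08 to 1.65, adjusted p 0.361), the highest value of any member, and 0.91 against control 2. RPL22 had 13.12, 13.31 and 13.42 in manganese and 13.78, 13.38 and 13.39 in control cells, a difference of -0.23 with overlapping groups, and its 3 passing probe sets ranged from -0.43 to -0.01. Against control 2 the RPL22 difference was -0.09. The starts of both genes carry a tract, of 6 bases in RPL22L1 and 7 in RPL22, as shown above.

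RPS27L, the paralogue of the small subunit protein RPS27, had values of 11.19, 10.80 and 11.21 in manganese and 11.18, 10.56 and 10.49 in control cells. RPS27L overlapped between the groups and differed by 0.32 (95% interval -0.15 to 0.79, adjusted p 0.526), while its partner RPS27 differed by 0.03. The RPS27L difference was 0.50 against control 2, 0.54 without control 1 and 0.19 without control 3, and RPS27 was at 0.11 against control 2. RPL26L1 differed by 0.09 and RPL26 by 0.07, or by 0.38 and 0.13 against control 2. RPL10L, a copy of RPL10 known from testis, was close to background at 5.67, 5.33 and 5.33 in manganese and 5.27, 5.48 and 5.32 in control cells, a difference of 0.09 (-0.03 against control 2).

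As a set, 5 of the 6 paralogues tested had positive values, with a median of 0.21, and 30 of the 64 core genes did, with a median of -0.0060. Their groups overlapped for 5 of the 6 paralogues, RPL39L being the exception. No test of the paralogues against the core genes was made, and the paralogues tested lay at lower levels than most core genes. The members of a pair share sequence, so part of a paralogue's signal may come from its partner.

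RPL7L1, the paralogue of RPL7 that takes part in making the large subunit, had 6 passing probe sets. The brightest probe set read 9.08, 9.24 and 9.19 in manganese and 9.75, 9.02 and 8.94 in control cells, a difference of -0.07. The other 5 passing RPL7L1 probe sets gave differences from -0.77 to -0.40, and in each of them all manganese arrays lay below all control arrays. Control 1 was the highest array in each. The probe set at -0.77 read 5.24, 5.35 and 5.67 in manganese and 6.94, 5.91 and 5.73 in control cells. None of the 5 passed, with adjusted p of 0.263 to 0.375 in the fit of all passing probe sets. Against control 2 the brightest RPL7L1 probe set gave 0.15. RPL7 differed by 0.24 (95% interval -0.43 to 0.92), by 0.40 against control 2, by 0.56 without control 1 and by 0.0043 without control 3.

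The members named for their place at the working surfaces of the ribosome had small differences. RPLP1 and RPLP2 form the acidic stalk that recruits elongation factors. RPLP1 read 14.08, 14.10 and 14.10 in manganese and 14.06, 14.14 and 14.11 in control cells, a difference of -0.01 (95% interval -0.23 to 0.21). RPLP2 differed by -0.02, and both were at -0.05 against control 2. RPS3, at the entry of the messenger RNA channel, read 14.17, 14.17 and 14.17 in manganese and 14.03, 14.14 and 14.14 in control cells. The groups of RPS3 did not overlap, yet the difference was 0.07 (95% interval -0.16 to 0.29), or 0.03 against control 2, at a level next to the top of the scale.

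RPL10 joins the large subunit late and completes the site where peptide bonds form. Its brightest probe set read 13.92, 13.89 and 13.93 in manganese and 13.90, 13.93 and 13.97 in control cells, a difference of -0.02. A dimmer RPL10 probe set read 7.28, 7.20 and 7.10 in manganese and 8.14, 7.50 and 7.93 in control cells, a difference of -0.66, and another gave -0.50. Neither dim RPL10 probe set overlapped between the groups, and their adjusted p in the limma fit of all passing probe sets were 0.228 and 0.278. Control 1 was the highest array in both. RPL3, which reaches into the same catalytic centre, differed by 0.05 (0.08 against control 2).

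**Figure D3:**
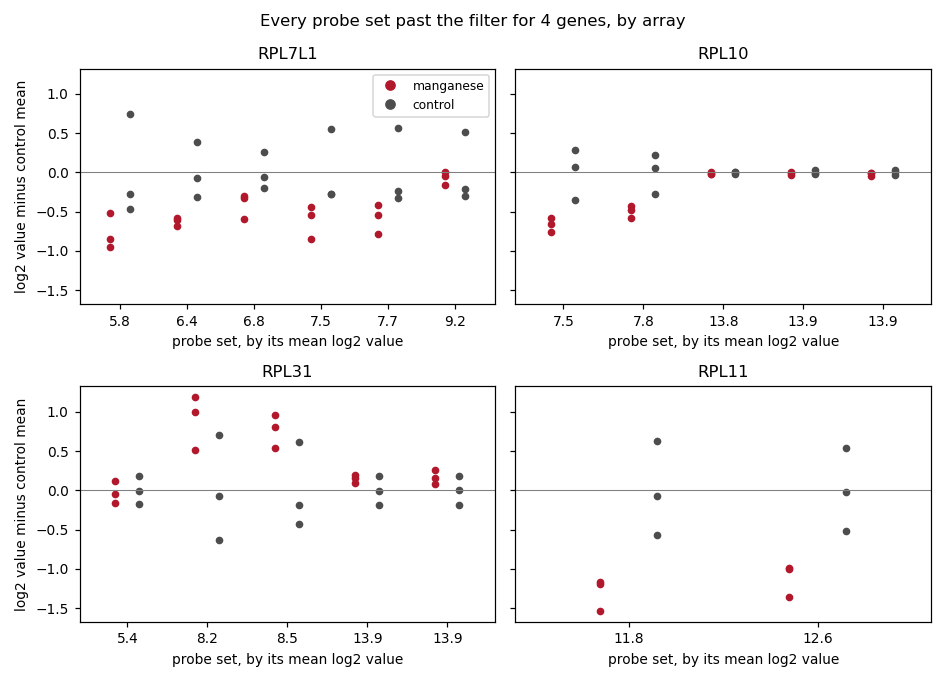
Every probe set past the filter for RPL7L1, RPL10, RPL31 and RPL11, with each array's log2 value minus the mean of the control arrays (y axis) and the probe sets ordered by their mean log2 value (x axis), manganese in red and control in grey. In RPL7L1 and RPL10 the dimmer probe sets lie below the controls while the brightest lie within them, in RPL31 the probe sets between 8 and 9 lie mostly above them, and both RPL11 probe sets lie below.

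Probe sets of the same gene did not always give the same sign or size of change. Of the 46 genes with more than 1 passing probe set, 19 had probe sets that differed in sign or by more than 0.5. That count includes genes whose probe sets lay close on either side of 0, such as RPLP1, from -0.01 to 0.03. The same share over all genes was not counted, so the count is no trait of the members. For RPL31 the brightest probe set gave 0.16, and a pair of dimmer ones gave 0.76 and 0.90. The dimmest RPL31 probe set gave -0.03. For RPS23, a small subunit protein at the decoding centre, the range was from -0.60 at the dimmest probe set to 0.11. When all 170 passing probe sets were kept apart, 7 of them, from 6 genes, were higher at an unadjusted p under 0.05, against 5.39% of all probe sets. Another 14, from 8 genes, were lower, against 7.13% of all probe sets, and 5 of these were the RPL7L1 probe sets. The smallest adjusted p in that fit was 0.184, so none passed. The array's maker marks 92 of the 186 probe sets with the suffix x, for probes that also match other transcripts, and ribosomal protein genes have many processed pseudogenes, so the copy behind such a signal is uncertain. A further 32 carry the suffix s. How specific the probe sets without an x are was not tested.

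Changes were smallest in the brightest probe sets. Among the 85 member probe sets with a mean from 13 to 15, the median size of the change was 0.04 and the median SD within groups 0.05. Among the 20 from 12 to 13 these were 0.18 and 0.23, among the 33 from 8 to 12 they were 0.24 and 0.23, and among the 32 from 4 to 8 they were 0.13 and 0.19. All probe sets of the array at the same levels, from the brightest range to the dimmest, had median sizes of 0.05, 0.10, 0.17 and 0.13. The spread between replicates was likewise smallest in the brightest range. From 12 to 13, where RPL11, RPS6, RPS7 and RPL21 lie, 16 of the 20 member probe sets were negative. Of the probe sets of the array at that level, 157 of 303 were. Several of the 20 belong to the same gene, RPL21 and RPL14 among them, so they are not independent. From 13 to 15 more member probe sets were positive, 52 against 33 negative. In RPS7 and RPL21, control 1 was well above every other array and control 2 lay at the low end of all 6. RPS7 read 12.30, 11.94 and 12.30 in manganese and 13.42, 11.98 and 12.37 in control cells, and RPL21 read 12.77, 12.75 and 12.85 in manganese and 13.61, 12.72 and 12.97 in control cells. Their differences of -0.41 and -0.31 became 0.20 and 0.07 against control 2. Other genes tested by a negative probe set in that range were RPL10A, RPL5 and RPS24, at 0.02, 0.12 and 0.28 against control 2. RPL11, RPS6, RPL14 and RPL38 stayed negative, at -0.59, -0.21, -0.18 and -0.08.

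**Figure D4:**
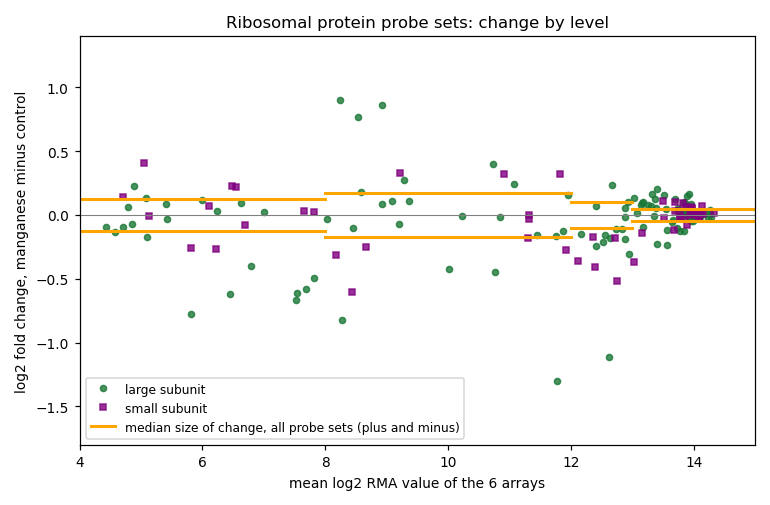
Log2 fold change, manganese minus control (y axis), of the 170 passing ribosomal protein probe sets against the mean log2 RMA value of the 6 arrays (x axis), large subunit as green circles and small subunit as purple squares. Orange lines mark, plus and minus, the median size of the change of all probe sets of the array in 4 ranges of level, and the 85 member probe sets above 13 crowd around 0.

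The remaining named members were chosen for the smallest unadjusted p on their side of 0, whatever its size. On the lower side these were RPL14 at -0.18, RPL27 at -0.13, RPS24 at -0.17, RPS25 at -0.15 and RPS13 at -0.08. Among them RPL27 and RPS13 had groups that did not overlap. On the higher side stood RPL34 at 0.20, RPL24 at 0.13, RPS9 at 0.11, RPS15A at 0.06 and RPS29 at 0.05, of which RPL24 and RPS29 did not overlap. RPS24, RPS25 and RPS9 turned sign against control 2, at 0.28, 0.05 and -0.13, and RPL27 was at -0.04. The other 35 genes tested lay between -0.19 and 0.10.

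Medians were close to 0 with and without each feature of the genes. The 42 genes with a tract at their annotated start had a median log2 fold change of -0.02 and a range from -1.11 to 0.86, and the 17 without had a median of 0.02 and a range from -0.41 to 0.32. Hosts of snoRNA genes ranged from -0.31 to 0.10, with a median of -0.0090 and 0 of 23 at an unadjusted p under 0.05. The 47 members without a snoRNA gene ranged from -1.11 to 0.86, with a median of 0.0049, and held all 6 genes at an unadjusted p under 0.05. Among all 410 tested protein-coding hosts of snoRNA genes the median was -0.04, with 15 higher and 39 lower at that p. Of all genes tested, 5.97% were higher and 6.85% lower at that p, and no test of hosts against other genes was made.

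Other genes of the same system were read from lists. FAU, which encodes the small subunit protein S30 fused to a ubiquitin-like protein, read 14.03, 14.00 and 14.03 in manganese and 13.87, 13.99 and 13.98 in control cells, a difference of 0.08 (0.03 against control 2). Of all genes tested, 5.97% were higher and 6.85% lower at an unadjusted p under 0.05, and the list counts below stand beside those shares. Of 21 translation factors and related proteins with TOP messenger RNAs, 0 passed, and the median was -0.03. At an unadjusted p under 0.05, 2 of these factors were higher and 1 was lower. They were EIF3E, a subunit of initiation factor eIF3, at 0.75, EEF1D, which recharges elongation factor eEF1A, at 0.36, and the helicase gene EIF4A2 at -0.89. Against control 2 EIF3E was at 0.72, EEF1D at 0.17 and EIF4A2 at -0.42. Of 17 measured regulators of these messenger RNAs, 0 passed, 1 was higher and 2 lower at an unadjusted p under 0.05, and the median was -0.11. DDIT4, an inhibitor of mTOR signalling, read 10.85, 11.15 and 10.78 in manganese and 9.86, 10.24 and 9.83 in control cells, a difference of 0.95 (adjusted p 0.107) and of 0.69 against control 2. MTOR differed by -0.70 (-0.26 against control 2), TSC1, part of the complex that restrains mTOR, by -0.59 (-0.10 against control 2), and LARP1 by -0.39 (-0.06 against control 2).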

How the data were processed

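The deposited values of 49395 probe sets are log2 signals. The submitters' processing notes name RMA and Affymetrix Expression Console as the authors' tools, with versions not given in the sources used here. RMA subtracts background, gives all arrays 1 distribution and summarises probes. Gene names came from the platform annotation, and 102 control probe sets were left out of tests.

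Probe sets above the 40th percentile of their array on at least 3 of 6 arrays were kept (29871), and the brightest with 1 symbol stood for each of 13407 genes. Groups were compared with limma 3.58.1 in R 4.3.3 (lmFit, eBayes, group as the only term, two-sided, Benjamini-Hochberg over all genes, threshold 0.05). Arrays give no counting depth, so their number limits the precision. The code was tested on simulated data whose changes were larger than that of any member. That test says nothing about the power to call smaller changes. Alternatives changed the filter, variance model, scaling, probe set choice, members, controls and replicate block, and left out each array.

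Members and lists were chosen with earlier results of these data known. The text names members past the threshold, the 6 genes per subunit and direction with the smallest unadjusted p, and genes fixed by role (35 in all), and up to 4 genes of each list by unadjusted p. Probe sets, members, list genes (MRPL57) or arrays described beyond these were chosen after their values were seen. TOP tracts were searched in RefSeq promoters of GRCh38.p14, where 59 of 70 genes matched.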

Additional observations from a re-analysis of the deposited data

How the results depend on the processing

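Of 489 values of named genes under the alternative settings, 451 kept their sign, 38 did not, and 1 passed the threshold, that of RPL11 without control 2. The limma counts past the adjusted threshold were 0 in both directions under the other alternatives, and the lower count ranged from 0 to 1 with an array left out. At an unadjusted p under 0.05 the reported fit had 2 higher genes. The count was 7 when all probe sets were kept apart, 0 among core proteins only, and 0 to 8 with an array left out, the 8 without control 1. The 4 lower became 2 with the replicate block and 14 with all probe sets. With an array left out they were 2 to 6, the 6 without control 2. In the fit of all passing probe sets, 5.39% were higher and 7.13% lower at that p. In the fits with the replicate block or an array left out, the share of all genes was not counted. Those counts therefore cannot be read as results about the members. The labels do not say whether the replicate numbers pair the arrays. Same-numbered arrays deviated from their group means together at r = -0.305, 0.153 and -0.272, and other pairs at r from -0.442 to 0.501. Deviations around means of 3 arrays constrain each other, so these values cannot settle the pairing. The fit with the replicate block called 0 genes. The large minus small subunit median, 0.0002, was 0.038 with the mean of all probe sets and 0.039 with the dimmest probe set.

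Signs turned as follows, and the cause was not tested. With the dimmest passing probe set RPL31 was at -0.030, RPL35A at 0.022, RPS23 at -0.60, RPS29 at -0.31, RPS6 at 0.40, RPLP1 at 0.025, RPLP2 at 0.094 and RPL3 at -0.13. With the mean of the probe sets RPS23 was at -0.13, RPS29 at -0.095, RPLP1 at 0.018, RPLP2 at 0.036 and RPL3 at -0.0032. With arrays centred on their medians RPLP1 was at 0.012, RPLP2 at 0.0007, RPL5 at 0.0069 and RPL10 at 0.0021, and the subunit medians were both at 0.02. Against control 2 alone RPL21 was at 0.072, RPS9 at -0.13, RPS7 at 0.20, RPS25 at 0.050, RPS24 at 0.28, RPL5 at 0.12, RPL7L1 at 0.15 and RPL10L at -0.032. With an array left out, RPS9 ranged from -0.0096 to 0.23, RPS7 from -0.72 to 0.0046, RPS25 from -0.24 to 0.0093, RPS24 from -0.39 to 0.094, RPL5 from -0.12 to 0.15, RPL7L1 from -0.22 to 0.19, RPL10L from -0.024 to 0.15, RPL26L1 from -0.12 to 0.44, RPS27 from -0.0084 to 0.066 and RPLP1 from -0.032 to 0.0065. How far signal near the top of the scale, or close to background in RPL10L, RPL27A and RPL3L, limits the values of these genes was not tested.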

Other observations

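Mitochondrial ribosomal proteins, which build the separate ribosome inside mitochondria, are also encoded in the nucleus. Of 74 such genes tested, 0 passed the limma threshold, 1 was higher and 7 were lower at an unadjusted p under 0.05, and the median log2 fold change was -0.02. The background shares at that p are those given for all genes. MRPL22 read 8.74, 8.77 and 8.47 in manganese and 9.62, 9.13 and 9.24 in control cells, a difference of -0.67 (limma adjusted p 0.194) without overlap, and -0.47 against control 2. MRPL48 differed by -0.75 and MRPL13 by -0.92, but by -0.29 and -0.39 against control 2. MRPL57, the 1 higher gene, differed by 0.27, or 0.12 against control 2, and was named for its direction.

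Among 11 measured genes for escorts of ribosomal proteins and late assembly factors, 0 passed. At an unadjusted p under 0.05, 1 was higher and 2 were lower, where 5.97% of all genes were higher and 6.85% lower. SBDS, which helps release the anti-association factor eIF6 from the new large subunit, read 7.11, 7.78 and 7.96 in manganese and 8.10, 8.27 and 8.27 in control cells, a difference of -0.60 (limma adjusted p 0.332). Control 1 was the lowest control for SBDS, and the difference against control 2 was -0.66. PDCD2, an escort of RPS2, differed by 0.31 (0.15 against control 2), and BCCIP, whose yeast counterpart escorts Rpl23, by -0.36. RPL36AL, a ribosomal protein gene whose symbol the strict reading of the naming rule does not take, read 8.73, 9.05 and 8.95 in manganese and 9.78, 9.21 and 9.47 in control cells, a difference of -0.58 (limma adjusted p 0.264) without overlap. Control 1 was the highest array for RPL36AL, and control 2 was the control nearest to the manganese arrays.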
